A study of Mus musculus with 8 samples.

Results

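Oxidative phosphorylation is carried out by 5 enzyme complexes of the inner mitochondrial membrane, and the 83 genes described here carry the names of their nuclear subunits. The rule goes by name: genes whose symbol follows a set pattern in the naming of the subunits of complexes I to V were taken. The pattern does not take in Ndufab1. Assembly factors and pseudogenes were left out, and Atp5o was left out because its symbol stood on 2 gene identifiers. The rule itself uses no measured value, but it was proposed with earlier results of these data known. Of the 31053 genes in the count matrices, 37 members belonged to complex I, 4 to complex II, 9 to complex III, 18 to complex IV and 15 to complex V. The assignment followed the symbol, so Ndufa4, which is now known as a subunit of complex IV, was counted with complex I. For the same reason Cox7a2l, a factor of supercomplex assembly, was counted with complex IV.

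Complex I oxidises NADH and complex II oxidises succinate. Both pass electrons through ubiquinone to complex III, from which cytochrome c carries them to complex IV and to oxygen. Complexes I, III and IV pump protons, and complex V, the ATP synthase, uses the resulting gradient to make ATP. Each complex except complex II also holds subunits encoded by mitochondrial DNA, which are translated inside the organelle, so the assembled chain needs products of both genomes. Firing neurons spend much ATP on restoring ion gradients, and fast-spiking parvalbumin interneurons are known for their high demand and their many mitochondria.

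The data came from 8 single-nucleus RNA-seq libraries of cortex, 1 mouse each, taken at 6 weeks of age from untreated C57BL6J mice. There were 4 Wt libraries (Ifnar1+/+) and 4 Ifnar1-/- libraries, which lacked the type I interferon receptor chain in all cells of a constitutive, backcrossed line, and each genotype had 2 female (F1, F2) and 2 male (M1, M2) mice. The libraries were made to ask which cell types of the brain change when Ifnar1 is lost. Nuclei were counted with unspliced transcripts included, so a value here takes in nascent RNA and is not a level of whole-cell mRNA or of protein. RNA from outside the nucleus was captured too, since mitochondria-encoded mRNAs were counted. Its part in the values of the members was not tested.

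After filters on genes, UMIs (unique molecular identifiers, each standing for 1 captured transcript), mitochondrial share and doublets, 52335 of 56780 barcodes were kept, 4281 to 9136 per library. The libraries held 44063346 to 58423423 UMIs. Any pair of libraries shared between 3 and 30 barcodes. Cell classes were rebuilt by clustering without the 83 genes among the clustering genes and were named from markers: 23128 nuclei were glutamatergic neurons, 7272 were GABAergic neurons (2068 of them PValb interneurons), 7071 were oligodendrocytes, 4384 were microglia and 168 were astrocytes. A further 7653 nuclei in 9 clusters were left unnamed. Counts were summed per library and class, and levels are given as counts (UMIs) per 1000000 (CPM) of that library and class. Ifnar1 itself was at 42.4 to 62.1 CPM in the 4 Wt microglia sums and at 22.7 to 36.2 CPM in the 4 Ifnar1-/- sums (log2 fold change -0.81 ± 0.22, edgeR adjusted p = 0.999), while over all nuclei the values were 16.2 to 19.9 and 13.9 to 16.8 CPM. The counts cover the whole gene, and the deleted stretch is not given in the sources used here, so these reads do not check the knockout. The median mitochondrial share per nucleus was 0.159 to 0.388% in female libraries and 0.387 to 1.13% in male libraries.

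Promoters are shown for 4 members that span the range of the male-female difference described further on: Uqcrfs1 and Cox6a1, with large differences, Cox8a, whose 4 female libraries spread widely, and Sdha, which did not pass the test. Each window runs from 250 bases before to 50 bases after the start of transcription in RefSeq on GRCm38.p6, the assembly on which the counts' mm10 reference is built. All 4 lie on the minus strand, at chr13:30545267-30545566 for Uqcrfs1, chr5:115348909-115349208 for Cox6a1, chr19:7217567-7217866 for Cox8a and chr13:74350191-74350490 for Sdha. Capitals mark exact matches, on either strand, to the letters GCGCATGCG (the site of NRF1, a known regulator of respiratory chain genes) or CCGGAAGT (the site of ETS factors such as GABPA, also called NRF2).
Uqcrfs1: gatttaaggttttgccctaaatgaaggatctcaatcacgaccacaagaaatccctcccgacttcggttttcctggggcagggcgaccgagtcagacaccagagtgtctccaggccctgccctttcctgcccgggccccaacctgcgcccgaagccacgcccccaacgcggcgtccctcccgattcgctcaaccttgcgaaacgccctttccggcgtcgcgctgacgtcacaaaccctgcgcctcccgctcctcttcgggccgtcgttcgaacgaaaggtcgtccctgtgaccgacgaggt
Cox6a1: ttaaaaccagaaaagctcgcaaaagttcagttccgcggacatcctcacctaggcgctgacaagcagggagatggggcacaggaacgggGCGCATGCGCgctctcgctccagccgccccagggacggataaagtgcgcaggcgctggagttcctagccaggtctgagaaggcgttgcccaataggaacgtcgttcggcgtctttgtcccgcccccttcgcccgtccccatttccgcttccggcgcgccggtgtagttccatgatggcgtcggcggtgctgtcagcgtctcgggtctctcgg
Cox8a: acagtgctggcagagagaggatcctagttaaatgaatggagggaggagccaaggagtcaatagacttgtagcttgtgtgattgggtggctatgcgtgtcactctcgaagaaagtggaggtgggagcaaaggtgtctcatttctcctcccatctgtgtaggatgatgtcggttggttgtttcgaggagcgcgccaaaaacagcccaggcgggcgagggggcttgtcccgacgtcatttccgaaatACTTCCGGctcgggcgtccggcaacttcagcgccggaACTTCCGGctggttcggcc
Sdha: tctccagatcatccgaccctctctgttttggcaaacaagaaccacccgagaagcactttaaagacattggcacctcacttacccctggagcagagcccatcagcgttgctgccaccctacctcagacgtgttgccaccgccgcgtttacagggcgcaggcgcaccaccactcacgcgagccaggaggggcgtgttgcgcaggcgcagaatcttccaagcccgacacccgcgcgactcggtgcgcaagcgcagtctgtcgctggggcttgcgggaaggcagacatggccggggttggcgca

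In the Cox6a1 window the NRF1 letters matched on both strands, 1 base apart, with the first capital 162 bases before the start, here written as -162. Cox8a held 2 ETS matches, the first at -6. No match was present in the Uqcrfs1 and Sdha windows. Of the 83 members 65 had a promoter in the table. The NRF1 letters were in 8 of them (12.3%; Ndufa8, Ndufa11, Uqcr11, Uqcrc1, Cox6a1, Atp5g2, Atp5k and Atp5l) and in 1.95% of all 27025 genes with a promoter. The ETS letters were in 5 (7.69%; Ndufs3, Uqcr11, Uqcrh, Cox8a and Atp5h) against 4.31% of all genes. The last set of letters, AAGATGGCG, the site of YY1, was in 7 members (10.8%; Ndufa9, Ndufc1, Ndufs4, Ndufs6, Ndufs7, Atp5j and Atp5j2) against 1.64% of all genes. A match is a string of letters and was not read as a bound site.

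Most members were counted well enough to test. The filter on low counts kept 76 of the 83 in glutamatergic neurons, 75 in GABAergic neurons, 72 in microglia, 74 in oligodendrocytes and 78 over all nuclei. In astrocytes, where 6 libraries had at least 10 nuclei, it kept 1. The members that failed over all nuclei were Cox8b, Cox8c, Ndufa4l2 and 2 genes with no count at all. Single classes also lost Cox4i2, Cox6b2, Cox7a1 and, in glia, Cox6a2, Cox7b2 and Ndufb4. Cox8b, the heart and muscle isoform of a small complex IV subunit, had 32 UMIs in all nuclei, and Cox8c, its testis isoform, had 1. Ndufa4l2, a paralogue of Ndufa4, had 58 UMIs, Cox4i2 had 149, Cox7a1, the heart and muscle isoform of Cox7a2, had 167, and Cox6b2, the testis isoform of Cox6b1, had 270.

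Cox4i1, the ubiquitous isoform of the largest nuclear subunit of complex IV, and Ndufa13, an accessory subunit of complex I, were at 0 of 376146305 UMIs. Both lie wholly within a longer gene on the same strand in the mm10 annotation. Cox4i1 (chr8:120668222-120674207, plus strand) lies in Gm20388, which had 492908 UMIs, and Ndufa13 (chr8:69894180-69902558, minus strand) lies in Yjefn3, which had 3813 UMIs. These 2 members have no measured level here, and the 0 sets no upper limit on it. Another 3 members overlapped a same-strand gene over part of their length (Ndufb9 over 62.9%, Ndufb8 over 62.0% and Ndufb2 over 37.2%), and their counts are uncertain for that reason. The count tables do not state whether strand was used, and 24 members overlapped a gene on the opposite strand.

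The first comparison was between genotypes. No member passed the test in any class: 0 of 76 in glutamatergic neurons, where 0.0498% of all genes were called, 0 of 75 in GABAergic neurons (0.0270%), 0 of 72 in microglia (0.126%), 0 of 74 in oligodendrocytes (0.0635%), 0 of 78 over all nuclei (0.0502%) and 0 of 1 in astrocytes (0%). The test was edgeR's quasi-likelihood test, with adjusted p under 0.05 over all genes tested in that class. At an unadjusted p under 0.05 there were 2 of 72 members in microglia, beside 145 of 9554 genes there, and 0 members in each other class, beside 305 of 18085 genes in glutamatergic neurons. The model held genotype only, so differences between the sexes counted as error in it. These counts of genes lay under the 5% that a p under 0.05 gives where nothing differs, so the p values may be too large. What the sexes did to the p values was not tested beyond the calls given next. DESeq2 also called 0 in every class, as did edgeR with sex as a covariate.

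The summed members were at 1519 and 1491 CPM in the female and 2111 and 2565 CPM in the male Wt libraries of glutamatergic neurons, and at 1633 and 1401 (female) and 2396 and 2342 CPM (male) in Ifnar1-/-. The genotypes overlapped widely, and the ratio of their means, Ifnar1-/- over Wt, was 1.01. It was 1.15 in microglia, 1.09 in oligodendrocytes and 0.994 in GABAergic neurons. The median log2 fold change of the members, Ifnar1-/- against Wt, was 0.17 in microglia, 0.09 in oligodendrocytes, 0.02 in GABAergic neurons and 0.04 in glutamatergic neurons, beside 0.00 for all genes in each class. Leaving out 1 library at a time moved the microglial median between -0.05 and 0.44 and the glutamatergic median between -0.07 and 0.20, so the sign of either depended on single libraries. Each of these fits left 1 genotype with unequal numbers of the sexes, and the model held no sex term. A single library and the balance of the sexes therefore cannot be told apart here.

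The members with the lowest p by genotype did not pass the test either. Cox7c, a small subunit of complex IV, was at 31.2, 28.7, 39.7 and 47.5 CPM in the Wt libraries of glutamatergic neurons (F1, F2, M1, M2) and at 52.5, 33.8, 45.3 and 54.0 CPM in the Ifnar1-/- libraries, a log2 fold change of 0.36 ± 0.19 (edgeR adjusted p = 0.999). The groups overlapped. In GABAergic neurons Cox7c gave 0.35 ± 0.21, and Ndufs3, a core subunit of complex I, gave -0.24 ± 0.14. In microglia Ndufb8, an accessory subunit of complex I, was at 5.87, 8.21, 9.08 and 17.8 CPM in Wt and at 28.4, 12.5, 22.2 and 24.4 CPM in Ifnar1-/- (0.98 ± 0.41, edgeR adjusted p = 0.999). Sdhd, a membrane anchor of complex II, was at 7.55, 15.05, 18.2 and 21.4 CPM in Wt microglia and at 28.4, 18.8, 30.8 and 30.7 CPM in Ifnar1-/- (0.81 ± 0.35, edgeR adjusted p = 0.999). For both genes 1 Wt library reached above the lowest Ifnar1-/- library. The lowest p values in oligodendrocytes belonged to Atp5s (-0.39 ± 0.28) and Uqcrc1 (-0.35 ± 0.26), in glutamatergic neurons after Cox7c to Ndufv2 (-0.12 ± 0.12), and over all nuclei to Cox7c (0.34) and Cox4i2 (-0.35). Cox8a, the 1 member tested in astrocytes, gave -0.14 ± 0.70 in a fit that dropped Wt F2 and Ifnar1-/- M1, which had 6 and 5 nuclei.

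The larger part of the variation between libraries followed sex. In glutamatergic neurons 55 of 76 members were higher in male than in female libraries and 0 were lower, beside 16.3% of 18085 genes called higher in males. The counts of members higher in males were 45 of 75 in GABAergic neurons (14.1% of all genes), 47 of 72 in microglia (11.6%), 52 of 74 in oligodendrocytes (12.9%) and 59 of 78 over all nuclei (15.2%), where a change of class make-up and of level per nucleus cannot be told apart. No member was called lower in males in any of these classes, except 1 in GABAergic neurons, Sdha, in the alternatives with RLE scaling or without the genotype term. The median log2 fold change, male against female, was 1.01 in microglia, 0.87 in oligodendrocytes, 0.54 in glutamatergic neurons, 0.59 in GABAergic neurons and 0.63 over all nuclei, beside medians between -0.01 and 0.01 for all genes. In GABAergic neurons the count fell to 29 without Wt M2.

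The summed level shows the same split in every class. In oligodendrocytes the 4 female libraries were at 2033, 2054, 2819 and 1846 CPM (Wt F1, Wt F2, Ifnar1-/- F1, Ifnar1-/- F2) and the 4 male libraries at 3985, 4252, 3882 and 4897 CPM (Wt M1, Wt M2, Ifnar1-/- M1, Ifnar1-/- M2). In microglia the values were 2752, 2831, 4334 and 2467 CPM in females and 5253, 5694, 5244 and 6978 CPM in males. In GABAergic neurons they were 2303, 2269, 2389 and 1993 CPM against 3011, 3947, 3732 and 3348 CPM. Every male library lay above every female library in each of these classes and in glutamatergic neurons, and Ifnar1-/- F1 was the highest female library in all 4. The ratios of the male to the female mean were 1.94 in oligodendrocytes, 1.87 in microglia, 1.57 in GABAergic neurons and 1.56 in glutamatergic neurons.

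**Figure D1:**
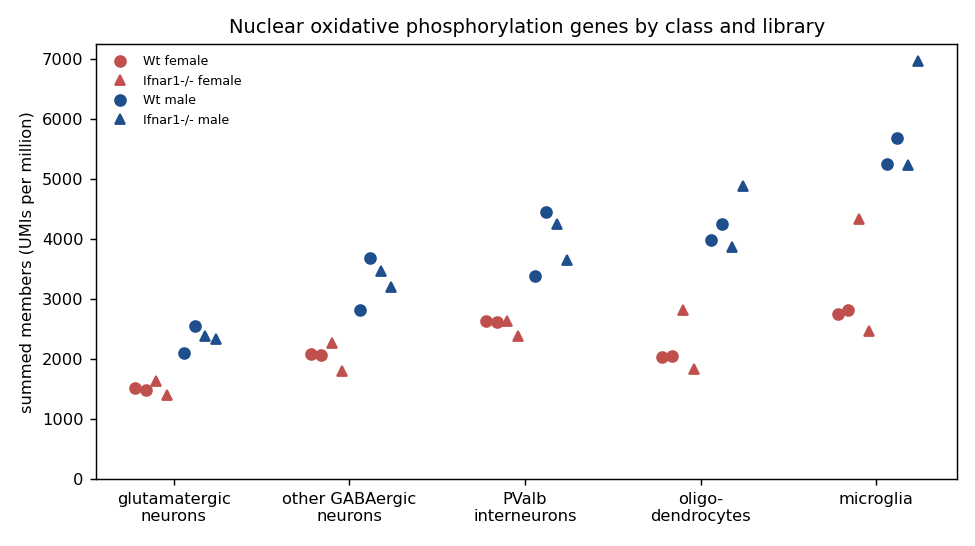
Summed level of the 83 members in CPM (vertical axis) for each of the 8 libraries in 5 cell classes (horizontal axis); each point is 1 library, marked by genotype and sex. In glutamatergic neurons the female libraries sit between 1401 and 1633 and the male libraries between 2111 and 2565, and male libraries lie above female libraries in each class drawn.

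The labels give no batch, so sex and anything handled along with it cannot be told apart. Other transcripts moved with it. The 13 mitochondria-encoded mRNAs summed to 1200 to 3086 CPM in female and 3371 to 7948 CPM in male glutamatergic neurons (ratio of means 2.41), and 5 of 13 passed the test there. Their ranges overlapped between sexes in oligodendrocytes (3525 to 10222 against 7860 to 29138 CPM) and in microglia (7535 to 20543 against 13293 to 44403 CPM). The 96 cytosolic ribosomal protein genes summed to 1411 to 1620 CPM in female and 1939 to 2808 CPM in male glutamatergic neurons (1.52), with 64 of 93 tested higher and 1 lower in males. Their ratio was 1.98 in oligodendrocytes and 1.82 in microglia. Markers of glutamatergic neurons summed to 250 to 437 CPM in female and 479 to 626 CPM in male oligodendrocytes (1.66), to 468 to 699 and 645 to 877 CPM in microglia, where the sexes overlapped, and to 1833 to 1949 and 1903 to 2061 CPM in glutamatergic neurons themselves (1.04). The part of any of these in the difference between sexes was not tested.

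Complex I, which takes electrons from NADH, was 1.41 times higher in male than in female glutamatergic neurons by its summed level, 1.43 times in GABAergic neurons, 1.72 times in oligodendrocytes and 1.62 times in microglia. Of its members 26 of 35 were higher in males in glutamatergic neurons, 19 of 35 in GABAergic neurons, 20 of 34 in microglia and 24 of 35 in oligodendrocytes. Ndufa4 was at 25.6, 26.7, 34.3 and 27.8 CPM in female and at 45.5, 76.4, 62.8 and 55.7 CPM in male glutamatergic neurons (libraries in the order used above), a log2 fold change of 1.01 ± 0.16 (edgeR adjusted p = 0.00189). All 4 male libraries exceeded all 4 female ones. Ndufs1, the largest iron-sulfur subunit, did not pass the test: it was at 67.3, 67.5, 63.2 and 67.7 CPM in females and at 71.5, 65.9, 69.9 and 62.7 CPM in males, with overlapping groups. The CPM means were 66.4 and 67.5, and the fold change, which takes the TMM scaling into account, was -0.04 ± 0.07 on the log2 scale (edgeR adjusted p = 0.682). Ndufs4, the member of complex I with the most UMIs and an accessory subunit whose loss is used as a mouse model of Leigh syndrome, was higher in males with a log2 fold change of 0.23 ± 0.07 (edgeR adjusted p = 0.0351). Ndufv1, which binds NADH, gave 0.36 without passing the test (edgeR adjusted p = 0.0808).

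Complex II, succinate dehydrogenase, had the smallest ratios. Its summed level was 1.15 times higher in male glutamatergic neurons, 1.10 times in GABAergic neurons, 1.15 times in oligodendrocytes and 1.10 times in microglia, and the sexes overlapped in GABAergic neurons and microglia. Sdha, the flavoprotein that oxidises succinate, was at 59.8, 62.9, 64.1 and 59.99 CPM in female and at 67.0, 60.2, 60.3 and 56.0 CPM in male glutamatergic neurons (-0.08 ± 0.07, edgeR adjusted p = 0.423). In microglia it was at 93.2, 105, 131 and 92.5 CPM in females and at 113, 95.2, 87.4 and 109 CPM in males (-0.03 ± 0.16, edgeR adjusted p = 0.972). The sexes overlapped in both classes. In GABAergic neurons every female library lay above every male library for Sdha, at 94.0 to 98.1 against 80.2 to 93.1 CPM, with a log2 fold change of -0.21 ± 0.08 that did not pass the test (edgeR adjusted p = 0.0577). Among its partners in glutamatergic neurons, the iron-sulfur subunit Sdhb (0.40 ± 0.07, edgeR adjusted p = 0.00403) and the anchor Sdhd (0.61 ± 0.14, edgeR adjusted p = 0.0114) were higher in males, and the anchor Sdhc was not called (0.10 ± 0.08, edgeR adjusted p = 0.37).

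Complex III, which passes electrons from ubiquinol to cytochrome c, was 1.73 times higher in male glutamatergic neurons, 1.81 times in GABAergic neurons, 2.18 times in oligodendrocytes and 2.20 times in microglia. Of its 9 members 8 were higher in males in glutamatergic neurons, 7 in GABAergic neurons, 7 in microglia and 8 in oligodendrocytes. Uqcrfs1, the Rieske iron-sulfur protein, was at 3.19, 3.45, 3.79 and 2.82 CPM in female and at 11.0, 14.2, 14.2 and 12.0 CPM in male glutamatergic neurons (1.89 ± 0.15, edgeR adjusted p = 2.21e-05). In microglia it was at 10.9, 10.9, 5.68 and 6.25 CPM against 36.3, 42.7, 40.6 and 48.8 CPM (2.18 ± 0.29, edgeR adjusted p = 5.87e-05). No male library came near a female one in either class. It gave 2.01 ± 0.19 in GABAergic neurons and 1.95 ± 0.29 in oligodendrocytes, where Ifnar1-/- F1, at 15.3 CPM, stood above the other female libraries (4.17 to 6.93) and below the males (27.6 to 35.8). Cyc1, cytochrome c1, was at 16.9, 12.4, 14.3 and 13.4 CPM in female and at 42.9, 58.9, 54.2 and 33.9 CPM in male glutamatergic neurons, again without overlap (1.67 ± 0.17, edgeR adjusted p = 0.000147). Uqcrc1, a core protein, gave 0.37 ± 0.11 (edgeR adjusted p = 0.0259) with overlap, since Ifnar1-/- M2 at 33.4 CPM lay below Wt F1 at 34.8.

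Complex IV, cytochrome c oxidase, had the largest summed ratio of the 5 complexes in each of the 4 classes: 2.72 in oligodendrocytes, 2.52 in microglia, 2.04 in glutamatergic neurons and 2.02 in GABAergic neurons. A sum leans on its abundant members, and by the median log2 fold change of the members complex III was above complex IV in microglia (1.44 against 1.21) and in GABAergic neurons (0.85 against 0.79), while in glutamatergic neurons both were at 0.84 and in oligodendrocytes complex IV was at 1.10 and complex III at 1.09. The counts were 8 of 13 members higher in males in glutamatergic neurons, 7 of 12 in GABAergic neurons, 9 of 10 in microglia and 8 of 11 in oligodendrocytes. Cox6a1, the ubiquitous isoform of a regulatory subunit, was at 17.5, 13.6, 17.9 and 14.8 CPM in female and at 45.0, 59.7, 57.3 and 56.8 CPM in male glutamatergic neurons (1.71 ± 0.12, edgeR adjusted p = 1.23e-05). Cox5a, which forms a subunit beside Cox5b, was at 18.4, 16.1, 14.9 and 16.6 CPM against 43.8, 44.9, 47.3 and 37.6 CPM (1.33 ± 0.09, edgeR adjusted p = 1.19e-05). The male values were clear of the female values for both genes. Cox5b, a zinc-binding subunit, was at 5.89, 2.51, 4.93 and 2.995 CPM against 11.3, 16.9, 14.9 and 14.97 CPM (1.76 ± 0.26, edgeR adjusted p = 0.00174).

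Cox5b had the largest fold of the members in both glial classes. In oligodendrocytes it was at 8.55, 2.52, 13.1 and 2.39 CPM in female and at 29.7, 31.5, 37.0 and 49.8 CPM in male libraries (2.32 ± 0.35, edgeR adjusted p = 0.00103). In microglia it was at 12.6, 4.10, 34.1 and 8.75 CPM against 50.9, 59.6, 44.3 and 59.0 CPM (2.27 ± 0.34, edgeR adjusted p = 0.000195). Within the females F1 was higher than F2 in both genotypes and in all 3 of these classes. Cox8a, the ubiquitous isoform of the smallest subunit, showed that spread more strongly, at 50.7, 18.3, 62.0 and 21.98 CPM in female and at 94.5, 118, 107 and 174 CPM in male glutamatergic neurons (1.62 ± 0.41, edgeR adjusted p = 0.0237). That call was lost in 4 of the alternatives tried, and Cox8a was not called in microglia (1.89 ± 0.67, edgeR adjusted p = 0.116) or in oligodendrocytes (1.86, edgeR adjusted p = 0.0858). Of the other fixed members in glutamatergic neurons, Cox6c (1.09), Cox7a2 (0.84), Cox6b1 (0.74) and Cox7a2l (0.33), the last of these a factor of supercomplex assembly, were called, and the log2 fold changes of Cox6a2 (0.95), Cox7a1 (0.45), Cox7b (0.36) and Cox7b2 (-0.01) did not pass the test.

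Complex V, the ATP synthase, lay near the value for all members, at 1.57 times higher in male glutamatergic neurons, 1.55 times in GABAergic neurons, 1.93 times in oligodendrocytes and 1.87 times in microglia. In GABAergic neurons 10 of its 15 members were higher in males, and in glutamatergic neurons, oligodendrocytes and microglia 11 of 15. Atp5a1, the alpha subunit of the catalytic head, was at 21.8, 20.7, 24.4 and 18.1 CPM in female and at 60.8, 60.4, 59.9 and 53.0 CPM in male glutamatergic neurons (1.39 ± 0.10, edgeR adjusted p = 1.62e-05). Its partner Atp5b, the catalytic beta subunit, was at 45.6, 39.3, 44.3 and 38.8 CPM against 47.1, 57.4, 55.8 and 48.8 CPM (0.25 ± 0.09, edgeR adjusted p = 0.0675). The alpha and beta subunits stand in equal number in the enzyme, while their transcripts gave log2 fold changes of 1.39 and 0.25, of which the beta transcript's did not pass the test; the difference between them was not tested. Atp5g1, Atp5g2 and Atp5g3, which encode the same mature subunit of the proton-driven ring, gave 0.77, 0.41 and 0.31, of which Atp5g1 and Atp5g2 passed. Atp5d, the delta subunit of the central stalk, was at 45.3, 19.2, 45.4 and 18.8 CPM in female and at 124, 101, 107 and 133 CPM in male microglia (1.89 ± 0.25, edgeR adjusted p = 0.00011), with the females again split between F1 and F2.

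**Figure D2:**
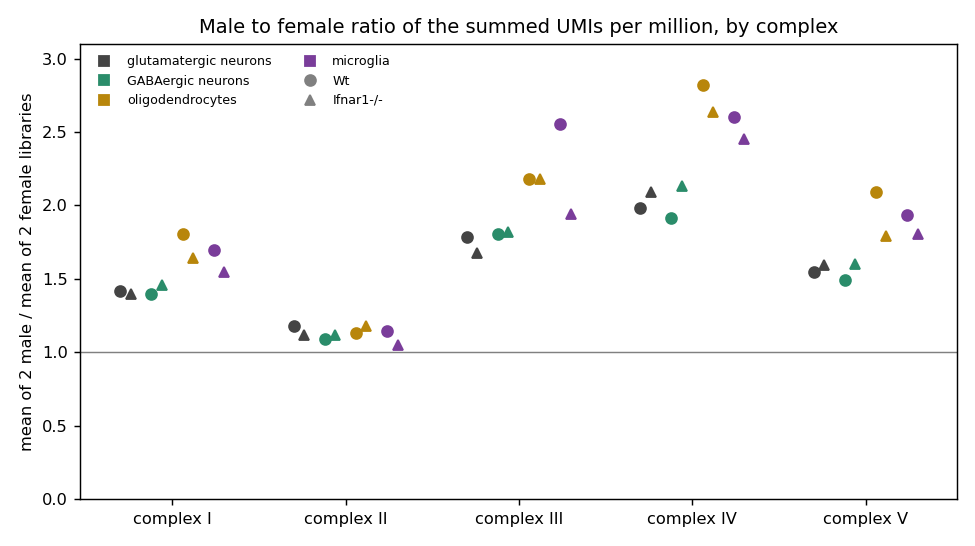
Ratio of the mean level in male to that in female libraries (vertical axis) for the summed members of complexes I to V (horizontal axis), in 4 cell classes, separately for Wt and Ifnar1-/- with 2 libraries of each sex. Complex II lies lowest and complex IV highest; in glutamatergic neurons the complex IV ratio was 1.99 in Wt and 2.09 in Ifnar1-/-, and that of complex II 1.18 and 1.12.

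The unequal differences changed the make-up of the member transcripts. In glutamatergic neurons complex I held 40.8 to 43.5% of the member UMIs in female and 36.3 to 39.0% in male libraries, and complex II 7.75 to 9.08% against 5.79 to 7.12%. Complex III held 10.7 to 11.0% against 11.2 to 12.4% and complex IV 14.9 to 17.8% against 19.2 to 24.1%, so these 2 were higher in every male library. The share of complex V overlapped between sexes. The pattern was the same in GABAergic neurons, oligodendrocytes and microglia. There the shares of complexes I and II were lower and those of III and IV higher in every male library. That of complex V again overlapped between sexes. Complex IV held 16.6 to 21.1% in female and 22.3 to 30.3% in male microglia. Shares of 1 total cannot move independently.

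Counted without a model, 55 of 76 members had every male library above every female library in glutamatergic neurons, where 18.8% of all genes did. The counts were 45 of 75 in GABAergic neurons (17.7%), 39 of 72 in microglia (10.6%) and 52 of 74 in oligodendrocytes (16.7%). Sdha in GABAergic neurons, described above, was the single case of the opposite order.

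Among the members, long genes had the smaller differences. In glutamatergic neurons the median log2 fold change, male against female, was 0.84 for the 26 members of up to 5 kb, 0.66 for the 25 of 5 to 10 kb, 0.39 for the 14 of 10 to 20 kb and 0.10 for the 11 over 20 kb. All genes tested showed a shallower slope, at 0.27, 0.16, 0.08 and -0.06. Across the 76 members Pearson's r between log2 gene length and log2 fold change was -0.51 (Spearman's rho -0.54), beside -0.21 (rho -0.26) over 18073 genes. In microglia r was -0.57 over 72 members, with medians of 1.21, 1.12, 0.67 and 0.05 in the same bins. The median gene length was 20.7 kb for the 4 members of complex II and 3.93 kb for the 18 of complex IV, with 7.80 kb for complex I, 4.76 kb for complex III and 7.76 kb for complex V, so complex and length moved together. Atp5c1 (-0.04), Uqcrc2 (-0.04) and Ndufb3 (-0.03), named here after their values were seen, were further members with log2 fold changes near 0 in glutamatergic neurons.

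**Figure D3:**
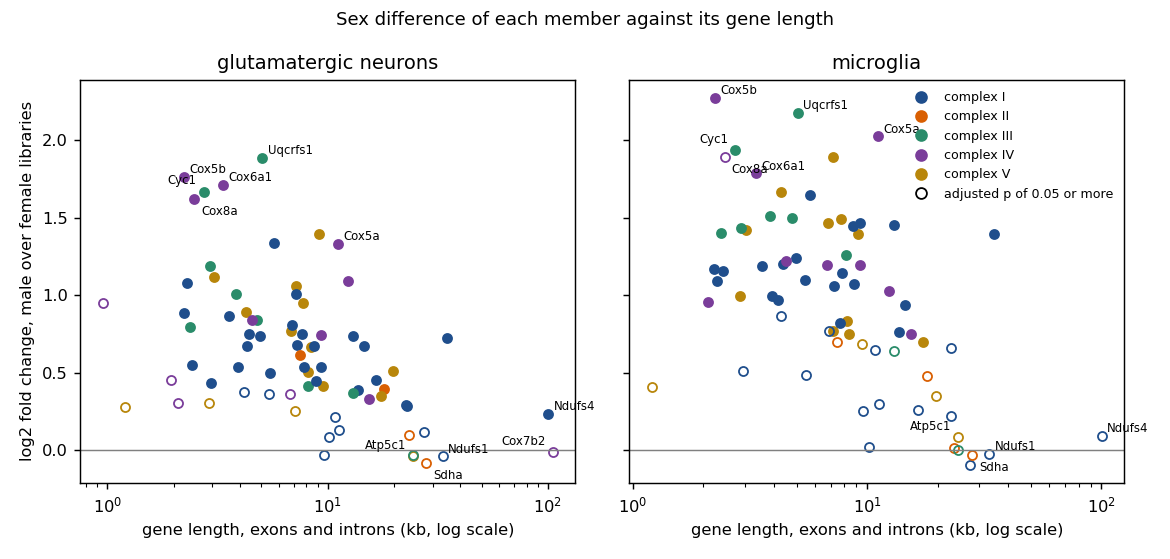
Log2 fold change, male against female (vertical axis), against gene length in kb on a log axis (horizontal axis) for each tested member, in glutamatergic neurons (left) and microglia (right); filled points passed the edgeR test. Members of up to 5 kb have a median of 0.84 in glutamatergic neurons and 1.21 in microglia, and those over 20 kb 0.10 and 0.05.

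The difference between sexes was then compared between genotypes with an interaction term. edgeR and DESeq2 each called 0 members over all nuclei and in the neuronal, oligodendrocyte and microglial sums, where edgeR called 0% of all genes. At an unadjusted p under 0.05 edgeR gave 1 member, in oligodendrocytes. That was Ndufc2, an accessory subunit of complex I, at 35.7 and 42.8 CPM in female and 91.6 and 112 CPM in male Wt libraries, and at 63.0 and 56.1 CPM in female and 80.3 and 72.0 CPM in male Ifnar1-/- libraries (interaction -1.02 ± 0.28 on the log2 scale, edgeR adjusted p = 0.999). Males were above females in both genotypes, by less in Ifnar1-/-. Each arm of this comparison held 2 libraries.

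Between the neuronal classes the members differed within each mouse. GABAergic neurons had higher levels of 72 of 75 members than glutamatergic neurons and a lower level of 1, beside 36.3% of all genes called higher. The median log2 fold change was 0.43 against 0.02 for all genes, and the summed level was 1.42 to 1.56 times higher in each of the 8 libraries. All complexes took part, with 33 of 35 tested members of complex I, 3 of 4 of complex II, 9 of 9 of complex III, 12 of 12 of complex IV and 15 of 15 of complex V higher. The fit kept the mouse as a block, since both classes come from the same animals, and without that block 32 members were called. The mitochondria-encoded mRNAs were 1.46 to 1.94 times and the cytosolic ribosomal protein genes 1.12 to 1.25 times higher in the same libraries.

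Ndufb5, an accessory subunit of complex I, was at 37.4 to 84.9 CPM in GABAergic and 17.2 to 38.8 CPM in glutamatergic neurons (0.87 ± 0.05, edgeR adjusted p = 9.76e-14), with ranges that met at their edges. Cox7b, a subunit of complex IV, gave 0.77 ± 0.04 (edgeR adjusted p = 7.03e-14), Ndufa4 0.70 and Ndufa12 0.68. Ndufs3 was the member lower in GABAergic neurons, at 37.2 to 57.9 against 36.2 to 58.2 CPM (-0.18 ± 0.04, edgeR adjusted p = 0.0011), with overlapping ranges. Sdhb (0.07, edgeR adjusted p = 0.098) and Ndufb4 did not pass.

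PValb interneurons stood above the other GABAergic neurons again. Of 75 members 40 were higher and 1 was lower, beside 26.3% of all genes called higher, with a median log2 fold change of 0.23 against 0.00 for all genes. The higher members were 14 of 35 of complex I, 4 of 4 of complex II, 5 of 9 of complex III, 7 of 12 of complex IV and 10 of 15 of complex V. Counted in either direction, 54.7% of the members were called, near the 52.9% of all genes, with 40 of 41 called members and 3364 of 6767 called genes higher. The summed members were 1.14 to 1.32 times higher in all 8 libraries. Over the same libraries the mitochondria-encoded mRNAs were at 0.73 to 0.86 times the level of the other GABAergic neurons (11 of 13 lower) and the ribosomal protein genes at 0.80 to 0.93 times (46 of 88 lower and 5 higher), so nuclear members were higher where both of these lists were lower. Without the mouse block 16 members were called.

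Cox6a2, the heart and muscle isoform of the complex IV subunit that Cox6a1 encodes elsewhere, had the largest difference. It was at 28.7, 25.3, 26.3 and 55.6 CPM in the Wt PValb libraries (F1, F2, M1, M2) and at 27.9, 33.3, 55.5 and 35.9 CPM in the Ifnar1-/- libraries. The other GABAergic neurons were at 8.08, 4.78, 8.07 and 17.1 CPM in Wt and at 9.50, 7.81, 19.1 and 9.92 CPM in Ifnar1-/-. Glutamatergic neurons were at 0.31 to 1.69 CPM. Every PValb library exceeded every library of the other classes of neurons given here. The log2 fold change was 1.79 ± 0.10 for PValb against other GABAergic neurons (edgeR adjusted p = 4.41e-20). In GABAergic against glutamatergic neurons Cox6a2 passed the filter on low counts only through the GABAergic neurons, where it was high. Its log2 fold change of 3.95 there is given without a test, though the counts of called members above include it. The gene (chr7:128205435-128206387, minus strand) lies wholly inside Itgad on the opposite strand. Itgad itself was at 0.79 to 5.4 CPM in PValb interneurons, 0.26 to 1.1 CPM in glutamatergic neurons and 5.5 to 20.2 CPM in oligodendrocytes. Whether its reads entered the Cox6a2 counts was not tested. Pvalb, the marker of the class, was at 51.8 to 143 CPM in PValb interneurons and 1.89 to 11.3 CPM in other GABAergic neurons.

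Among the ubiquitous subunits, Cox7b was at 103, 146, 105 and 178 CPM in Wt and 98.5, 108, 162 and 130 CPM in Ifnar1-/- PValb interneurons, against 58.2, 91.8, 72.4 and 104 CPM and 61.9, 53.1, 89.4 and 90.4 CPM in other GABAergic neurons (0.74 ± 0.05, edgeR adjusted p = 1.09e-16). PValb interneurons were higher in each mouse. Atp5l, a membrane subunit of the ATP synthase, rose from 41.8 to 77.1 CPM in other GABAergic neurons to 66.6 to 111 CPM in PValb interneurons (0.68 ± 0.06, edgeR adjusted p = 4.21e-14), and Atp5c1, the gamma subunit that turns inside the catalytic head, from 45.9 to 61.9 to 69.5 to 85.5 CPM (0.58 ± 0.06, edgeR adjusted p = 3.36e-11). Uqcrc1 gave 0.55 ± 0.06 (edgeR adjusted p = 6.35e-10). All of complex II was higher, with log2 fold changes of 0.23 for Sdha, 0.37 for Sdhb, 0.37 for Sdhc and 0.39 for Sdhd. Ndufc2 was lower (-0.15 ± 0.06, edgeR adjusted p = 0.0492), a call lost in 9 alternatives. Members with large differences between sexes did not pass here: Uqcrfs1 gave 0.20 (edgeR adjusted p = 0.175), Cox8a -0.03 and Ndufa4 0.04.

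**Figure D4:**
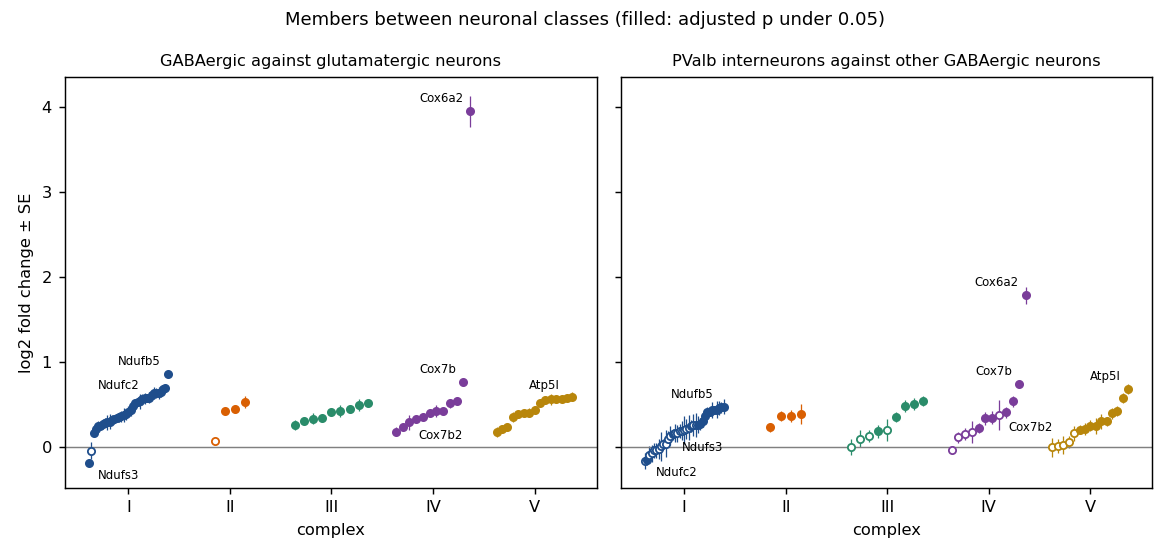
Log2 fold change ± SE of each tested member (vertical axis), grouped by complex (horizontal axis), for GABAergic against glutamatergic neurons and for PValb interneurons against other GABAergic neurons. Cox6a2 lies highest in both, at 3.95 (given without a test) and 1.79, and most other members lie above 0, with medians of 0.43 and 0.23.

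Known regulators of these genes were listed for the same comparison, and 6 of 15 were higher in PValb interneurons, beside the 26.3% of all genes. Counted in either direction 7 of 15 were called, a share that did not exceed the 52.9% of all genes. Ppargc1a, the coactivator of mitochondrial biogenesis, was at 210 to 270 CPM in PValb interneurons and 67 to 98 CPM in other GABAergic neurons (1.60 ± 0.05), and Esrrb, Esrrg and Esrra, the estrogen-related receptors it acts with, gave 2.60, 2.00 and 0.57. Polrmt, the mitochondrial RNA polymerase, gave 0.81 and Ppargc1b 0.56, and Yy1 was lower (-0.27). Of 47 assembly factors tested 29 were higher and 1 lower. By sex, in glutamatergic neurons 4 of 15 regulators were higher in males (Polrmt 0.83, Tfam 0.46, Esrra 0.38 and Yy1 0.27). So were 15 of 49 assembly factors and 7 of 14 genes of electron carriers and ubiquinone synthesis, beside the 16.3% of all genes called higher. No gene of these lists was called lower there. In either direction 29.4% of all genes were called, a share that the regulators did not exceed. In GABAergic neurons 4 of 15 regulators were called in either direction, near the 24.7% of all genes. Polrmt (0.80) and Esrra (0.50) were higher and Ppargc1a (-0.29) and Esrrg (-0.23) lower in males.

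Glial classes also had higher member levels (CPM) than glutamatergic neurons. In oligodendrocytes 65 of 76 members passed as higher and 5 as lower (37.2% of all genes higher), and the median was 0.82 against -0.06 for all genes and a summed ratio of 1.32 to 2.09 in the 8 libraries. In microglia 61 of 75 passed as higher and 4 as lower (34.4%), and the median was 0.91 against -0.16 and a ratio of 1.76 to 2.98. The mitochondria-encoded mRNAs were 3.94 to 6.66 times and the ribosomal protein genes 2.47 to 3.997 times higher in microglia. Microglial sums held 176069 to 1271084 UMIs per library with a median of 1472 UMIs per nucleus, and Slc17a7, a transporter of glutamatergic neurons, was at 38.8 to 142 CPM in them against 221 to 428 CPM in glutamatergic neurons. How much neuronal RNA contributed to the glial values was not tested.

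Atp5e, the epsilon subunit of the ATP synthase, was at 32.8 to 139 CPM in microglia and 6.03 to 28.9 CPM in glutamatergic neurons (1.90 ± 0.12, edgeR adjusted p = 4.09e-13), and Uqcr11, a small subunit of complex III, gave 1.73 in microglia and 1.47 in oligodendrocytes. Ndufb11, an accessory subunit of complex I, was at 23.1 to 72.7 CPM in oligodendrocytes and 6.34 to 24.1 CPM in glutamatergic neurons (1.66 ± 0.10). Ndufb9 (1.74) and Ndufc1 (1.44) were also among the 5 largest in microglia. Ndufs4 went the other way, at 55.4 to 97.7 CPM in oligodendrocytes against 89.0 to 124 CPM in glutamatergic neurons (-0.64 ± 0.07, edgeR adjusted p = 1.01e-08), together with Ndufs3 (-0.55), Ndufa10 (-0.39) and Uqcrc1 (-0.28). In microglia Ndufa10 (-0.40), Ndufs4 (-0.26) and Ndufs1 (-0.26) were called lower, but all 3 had values above 0 (0.01, 0.17 and 0.16) when libraries were scaled by their totals alone. The scaling moved the median of all genes in microglia from -0.16 to 0.26.

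The testis-type isoforms of complex IV were unevenly spread over the classes, and each passed the filter on low counts only through the class where it was high, so their levels are given without a test. Cox6b2 was at 9.05, 10.7, 10.5 and 5.70 CPM in Wt and 4.38, 8.95, 15.4 and 7.31 CPM in Ifnar1-/- oligodendrocytes, from 138 UMIs, while no library of glutamatergic neurons exceeded 0.34 CPM. Cox7b2 had the opposite order: it was at 4.58 to 5.44 CPM in glutamatergic neurons and at 0 to 1.26 CPM in oligodendrocytes, from 8 UMIs, and had 7 UMIs in microglia. Both genes are included in the counts of called members above. The ranges did not overlap between oligodendrocytes and glutamatergic neurons for either gene. Cox6a2, with 50 UMIs in microglia, had a log2 fold change of 2.30 there against glutamatergic neurons, also given without a test. Pvalb was at 1.68 to 24.6 CPM in the same microglial sums.

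**Figure D5:**
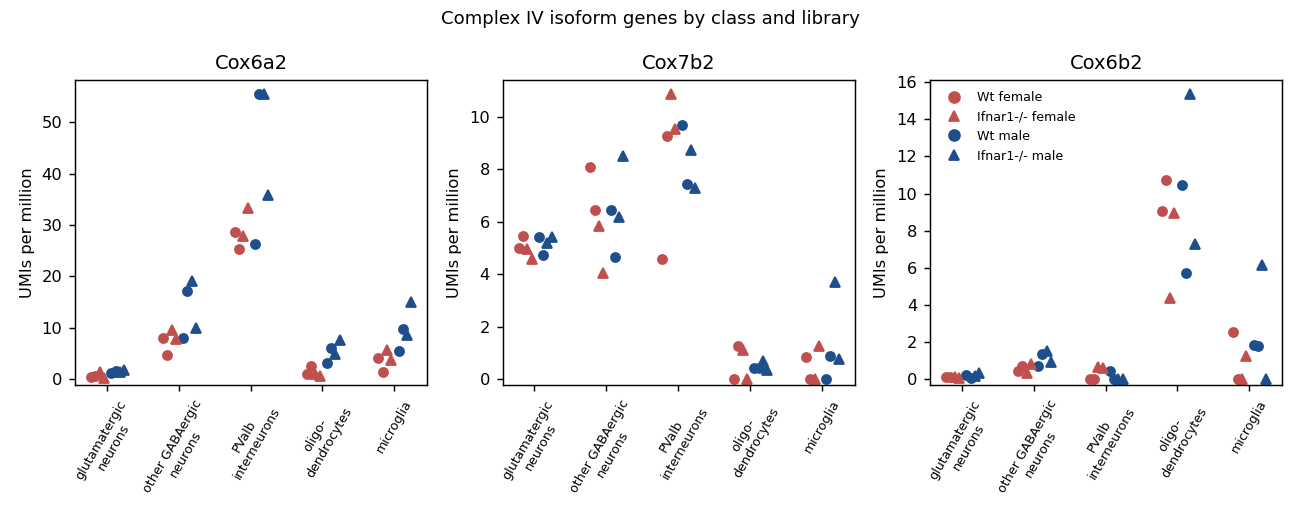
Level of Cox6a2, Cox7b2 and Cox6b2 in CPM (vertical axis) by cell class (horizontal axis), each point 1 library. Cox6a2 is highest in PValb interneurons (25.3 to 55.6), Cox7b2 is at 4.58 to 5.44 in glutamatergic neurons, and Cox6b2 is highest in oligodendrocytes (4.38 to 15.4).

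The 168 astrocytes gave little to compare. In the 6 libraries used, 5 of 74 members were higher than in glutamatergic neurons and 1 was lower, beside 9.40% of all genes called higher. The share of members called higher thus did not exceed that of all genes. Counted in either direction, 8.11% of the members and 28.2% of all genes were called. The called members were Ndufs6 (1.57 ± 0.50), Ndufa12 (1.56 ± 0.39), Uqcrfs1 (1.33 ± 0.53), Atp5f1 (0.99 ± 0.29) and Cox8a (0.67 ± 0.26), with Ndufs4 lower (-0.90 ± 0.31), resting on 12 to 94 UMIs per gene in all astrocytes. The counts ran from 0 with female libraries only to 23 with library totals only.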

How the data were processed

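Single-nucleus 3' RNA-seq of mouse cortex was analysed in 8 libraries. The authors aligned and counted reads with Cell Ranger on mm10, with whole transcripts treated as exons so that unspliced reads were counted, and worked in Seurat 3.1.5. The deposited matrices hold raw UMI counts per gene and barcode. All per-sample columns were used (0 left out).

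Nuclei with over 200 and under 6000 genes, over 1000 UMIs and under 10% mitochondrial UMIs were kept, and 2006 simulated-doublet calls were removed. Clusters (3000 variable genes without the members, 40 components, Leiden) were named from markers. Counts were summed per library and class with at least 10 nuclei. Genotype and sex were tested with edgeR 4.0.16 (R 4.3.3; TMM factors, filterByExpr, quasi-likelihood) within each class, sex with a genotype term, classes with the mouse as a block, and the interaction in a model of both. Calls are at an adjusted p (Benjamini-Hochberg over all genes tested) under 0.05, and errors are standard errors. Alternatives were DESeq2 1.42.0, other scaling, no filter, sex as a covariate and leaving out each library. The code was tested on simulated data. The standard errors come from fits over libraries and so include the spread between libraries. Each library is 1 mouse.

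The members and gene lists were chosen with earlier results of these data known. Named genes are a comparison's called members where there were up to 10, otherwise the 5 largest in each direction, the 2 lowest p where fewer than 2 were called, and a fixed list of core subunits and isoforms, of which 1 is not reported here. The labels F1, F2, M1 and M2 recur in both genotypes. Same-labelled libraries deviated together (correlations of 0.17 to 0.69 over classes), which the sex in the label also gives, and 1 to 2 of the 4 labels per class correlated best with their own. Promoter sequences are from RefSeq on GRCm38.p6.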

Additional observations from a re-analysis of the deposited data

Results flagged for a closer look

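Of 180 groups of 4 libraries examined for a library far from the other 3, 2 had one. Chance alone gives about 1 in 20 where the 4 libraries are alike. Each group here was 1 genotype with 2 female and 2 male libraries, so that rate does not apply where the sexes differ. Cox6a2 in Wt PValb interneurons was at 55.6 CPM in M2 and at 25.3 to 28.7 CPM in the other 3 libraries, a gap of 0.885 of the whole range. Sdha in Wt oligodendrocytes was at 74.0 CPM in M2 and at 93.0 to 95.1 CPM in the other 3, a gap of 0.899 of the range.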

How the results depend on the processing

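Counts of called members stayed within 1.5 times the reported count in 278 of 285 comparisons of a count with an alternative. The 7 others were GABAergic against glutamatergic neurons without the mouse block (32), PValb against other GABAergic neurons without it (16), astrocytes against glutamatergic neurons with library totals only (23), female libraries only (0), male libraries only (3) and without Ifnar1-/- F1 (3), and sex in GABAergic neurons without Wt M2 (29). Analyses of one sex alone were chosen after seeing the data. Leaving out 1 library at a time gave, by sex, 40 to 59 members over all nuclei, 32 to 50 in microglia, 41 to 55 in oligodendrocytes, 29 to 51 in GABAergic neurons and 37 to 57 in glutamatergic neurons. By class it gave 73 to 74 for GABAergic against glutamatergic neurons, 37 to 43 for PValb interneurons, 65 to 71 for oligodendrocytes, 63 to 65 for microglia and 3 to 6 for astrocytes. For genotype and the interaction it gave 0 throughout.

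For the pairing of equal labels, the fit with the replicate block called 0 members by genotype in every class in which it was run, as without it. Directions reversed in 9 single-gene results, none of which was tested for its cause: in microglia against glutamatergic neurons with library totals only, Ndufa10 (0.0094), Ndufs4 (0.17) and Ndufs1 (0.16), for Cox8a by genotype in astrocytes with no filter (0.092), with sex as a covariate (0.18) and without Ifnar1-/- F1 (0.30), Ifnar1-/- F2 (0.26) or Wt M2 (0.19), where leaving out 1 library gave -0.20 to 0.30, and for the interaction of Ndufc2 over all nuclei without Wt M2 (0.024), where it gave -0.70 to 0.024. A further 67 kept their direction and lost the call, and 1072 kept both. Fits without the 2 astrocyte libraries that were already left out were not run. Depth limits the glial classes most, where a member at 1 CPM rests on few UMIs per library.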

Other observations

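Classes not compared above showed the same order of the sexes. In oligodendrocyte precursors (480 nuclei) the summed members were at 1643 to 2751 CPM in female and 3249 to 3924 CPM in male libraries, a ratio of means of 1.64. In striatal projection neurons (2179 nuclei), named from markers in libraries labelled as cortex, they were at 1711 to 2128 and 2762 to 3484 CPM, a ratio of 1.61. Every male library lay above every female library in both classes.

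The genes that span the uncounted members moved with sex in glutamatergic neurons in opposite directions. Yjefn3, around Ndufa13, was at 2.84 to 6.54 CPM in female and 9.68 to 13.1 CPM in male libraries, and Gm20388, around Cox4i1, was at 1282 to 1665 and 1124 to 1241 CPM. By genotype, Esrrg, encoding an estrogen-related receptor, was the one gene of the other lists that was called, lower in Ifnar1-/- microglia (-2.23 ± 0.24, edgeR adjusted p = 0.00258).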
